A study of Mus musculus with 9 samples.

Results

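miR-210 is a microRNA that cells make in larger amounts when oxygen is scarce. Both mature products of its hairpin, miR-210-3p and miR-210-5p, were taken by name from the deposited lists, which makes 2 of the 860 mature miRNAs measured. The samples were small RNA libraries of subcutaneous adipose tissue (the fat pad beneath the skin) from 9 mice aged 24 weeks. There were 3 mice for each genotype: WT littermates, and Hete_KO and Homo_KO mice, whose labels are read here as heterozygous and homozygous knockout of Ago1 in endothelial cells. Every mouse, the WT included, had eaten a diet rich in fat and sucrose for 16 weeks, starting at 8 weeks of age, so that the comparison is between genotypes of obese fat and not with lean fat. Neither the mouse strain nor the promoter that drives the endothelial deletion is given in the sources used here.

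The transcription factor HIF-1 alpha accumulates when oxygen is low and switches on miR-210 together with genes of glycolysis and blood vessel growth. miR-210-3p is the strand that Argonaute proteins mainly load; it is known to repress the iron-sulfur cluster scaffold Iscu, which lowers mitochondrial respiration, and the ephrin Efna3 in endothelial cells. Expanding fat can outgrow its blood supply, and hypoxia of obese adipose tissue has been linked to inflammation and fibrosis. Ago1 encodes one of the Argonaute proteins that hold mature miRNAs on their targets.

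The sequences below identify the 2 products, both 22 bases long, with the seed (bases 2 to 8 from the 5′ end, which select the targets) in capitals. They are RefSeq's, on GRCm38.p6.
miR-210-3p: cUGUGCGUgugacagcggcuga
miR-210-5p: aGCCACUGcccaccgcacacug
The hairpin is shown to place them, with both mature products in capitals and the 5p product first.
Mir210: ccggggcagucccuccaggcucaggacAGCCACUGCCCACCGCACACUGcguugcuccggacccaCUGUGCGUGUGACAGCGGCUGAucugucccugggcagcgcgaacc

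Mir210 lies on the minus strand at chr7:141221384-141221493, with miR-210-3p at chr7:141221407-141221428 and miR-210-5p at chr7:141221445-141221466. No other gene of the GENCODE vM21 annotation overlaps the hairpin. The nearest genes are Rassf7, 2726 bases away, and Phrf1, 7291 bases away. Of the miRNAs in the files, 698 had a mature sequence in the RefSeq table, and none of them other than the product itself carried the seed of miR-210-3p or that of miR-210-5p. The longest run of bases shared with any other of these miRNAs was 8 for miR-210-3p and 9 for miR-210-5p. A near-identical copy that could share reads with either product was therefore not found among them.

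Values are the authors' levels on a log2(x + 1) scale whose form is that of a quantile normalization, with nearly the same ranked levels in every library apart from ties and the lowest values. A level is thus read as a place in the order of miRNAs within a library, and the number of reads behind it is unknown. The libraries carried the miRNAs that are abundant in adipocytes, whose mean over 5 miRNAs lay between 13.65 and 14.05 in all 9. Endothelial miR-126a (mean of both arms) lay between 16.31 and 16.66 in WT, 15.68 and 16.05 in Hete_KO and 16.03 and 16.19 in Homo_KO. Since the tissue is a mixture, fewer cells of a type and less RNA per cell cannot be told apart. A trace of sequencing depth, the count of miRNAs listed at the bottom level of a library, ran from 63 to 152.

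miR-210-3p was a miRNA of middling abundance, in place 231 by mean level over the 9 libraries. In WT its level was 7.12, 7.26 and 6.95 in replicates 1, 2 and 3. In Hete_KO it was 6.74, 7.50 and 7.74. In Homo_KO it was 6.91, 7.26 and 7.80. The WT mice lay close together, while each knockout genotype held a mouse below every WT mouse and at least 1 mouse above every WT mouse, so that the groups overlapped in every comparison. The highest level of the 9 was that of Homo_KO replicate 3 and the lowest that of Hete_KO replicate 1.

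Within a library the place of miR-210-3p from the top ran from 215 to 260 of 860. Levels at this height are finely graded: in WT replicate 1 the nearest other levels were 7.09 and 7.14. By mean level the neighbours of miR-210-3p were miR-29a-5p (7.36) and miR-671-5p (7.25) just above and miR-195a-3p (7.23) and miR-503-3p (7.22) just below, against 7.25 for miR-210-3p itself. The SD of miR-210-3p over the 9 libraries was 0.37. The neighbours were picked for the closeness of their means, so the small distances follow from the choice.

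**Figure D1:**
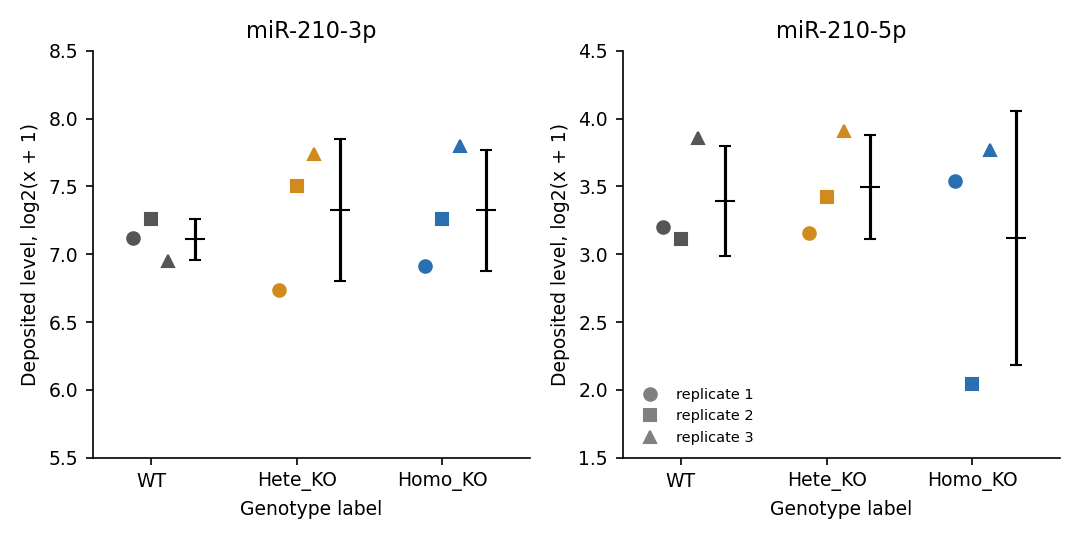
Level of miR-210-3p (left) and miR-210-5p (right) in each library, on the authors' log2(x + 1) scale, by genotype label; symbols are single mice, and the bars beside them are the mean and SD of 3 mice. The panels have axes of the same length at different heights and do not start at 0; the WT levels of miR-210-3p span 6.95 to 7.26, inside the span of both knockout genotypes, and miR-210-5p is lowest, at 2.04, in Homo_KO replicate 2.

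Group means of miR-210-3p (± SD, n = 3 mice) were 7.11 ± 0.15 for WT, 7.33 ± 0.52 for Hete_KO and 7.32 ± 0.45 for Homo_KO. Hete_KO was 1.16-fold the WT level, with a 95% interval of 0.735 to 1.84 (limma, log2 difference 0.22 ± 0.29 SE, adjusted p = 0.773). Homo_KO was also 1.16-fold the WT level, with an interval of 0.733 to 1.84 (log2 difference 0.21 ± 0.29, adjusted p = 0.659). Homo_KO and Hete_KO stood at a ratio of 0.997, with an interval of 0.63 to 1.58 (adjusted p = 1). A moderated F-test over the 3 genotypes gave an adjusted p of 0.827. These intervals do not contain a doubling or a halving of miR-210-3p in any of the comparisons, and smaller differences were not resolved with 3 mice a group. The comparisons with WT use the same 3 WT mice.

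Neither product was called in any comparison, and the unadjusted p of each pair of genotypes was 0.464 or more. Among all 489 miRNAs that passed the filter on low values, limma called 3.27% in Homo_KO against WT, 0.409% in Hete_KO against WT, 0% in Homo_KO against Hete_KO (where 41 miRNAs had an unadjusted p under 0.05) and 1.23% across the 3 genotypes. The mice of the groups did not overlap in 32.7% of the tested miRNAs for Homo_KO against WT, 17.2% for Hete_KO against WT and 12.3% for Homo_KO against Hete_KO. The absolute log2 difference of miR-210-3p exceeded that of 35.4% of the tested miRNAs in Homo_KO against WT and of 45.6% in Hete_KO against WT.

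**Figure D2:**
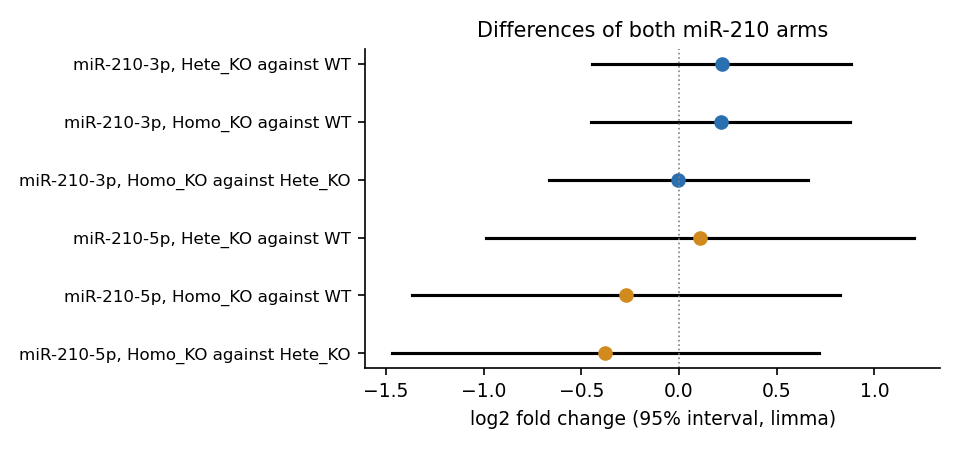
Differences of miR-210-3p (blue) and miR-210-5p (orange) between genotypes as log2 fold changes, with lines for the 95% interval from limma; miR-210-5p comes from the fit with no filter on low values. Every interval includes 0, and those of miR-210-5p are the wider ones.

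Single knockout mice set the size of these differences. Without Hete_KO replicate 1 the log2 difference of miR-210-3p between Hete_KO and WT was 0.51 (limma, unadjusted p = 0.0786, adjusted p = 0.303), and without Hete_KO replicate 3 it was 0.01. Without Homo_KO replicate 3 the difference between Homo_KO and WT was -0.02, and without Homo_KO replicate 1 it was 0.42 (adjusted p = 0.459). With the count of bottom-level miRNAs as a covariate the differences from WT were 0.12 for Hete_KO and 0.11 for Homo_KO.

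Hete_KO replicate 1, the mouse with the lowest miR-210-3p, was also the library with the highest mean of 6 epithelial miRNAs. That mean was 9.27, while the other 8 libraries ranged from 5.97 to 7.16. All 6 epithelial markers were above the lowest value in every library, and their summed linear level ran from 3528 to 4793 in WT, 7509 to 8016 in Hete_KO and 7113 to 7969 in Homo_KO. By that sum Hete_KO replicate 1, at 7509, was the lowest of the Hete_KO libraries, so the 2 measures rank it differently. The part of these markers in the level of miR-210-3p was not tested. Skeletal muscle miRNAs can vary with the muscle included in a piece of tissue, which was not tested here. Their mean over 4 miRNAs lay between 7.56 and 13.73 in WT, 8.76 and 14.35 in Hete_KO and 6.17 and 11.68 in Homo_KO. Of these 4, miR-206-3p was at the lowest value in Homo_KO replicate 2. The summed linear level of the 4 ran from 4822 to 599229 in WT, 19903 to 1.12e+06 in Hete_KO and 3049 to 83527 in Homo_KO. With the muscle mean as a covariate the log2 differences of miR-210-3p from WT were 0.21 for Hete_KO and 0.19 for Homo_KO, close to those without it.

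Mice of the same genotype differed more in miR-210-3p than in most miRNAs of like abundance. Its SD within genotypes, pooled over the 3 groups, was 0.41, against a median of 0.30 over the 489 tested miRNAs. Among the 41 tested miRNAs whose mean lay within 0.5 of that of miR-210-3p (itself included) the median was 0.27, and 82.9% had a smaller SD. The SD of miR-210-3p was 0.15 in WT and 0.52 and 0.45 in the knockouts; whether the spread differs between genotypes was not tested.

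**Figure D3:**
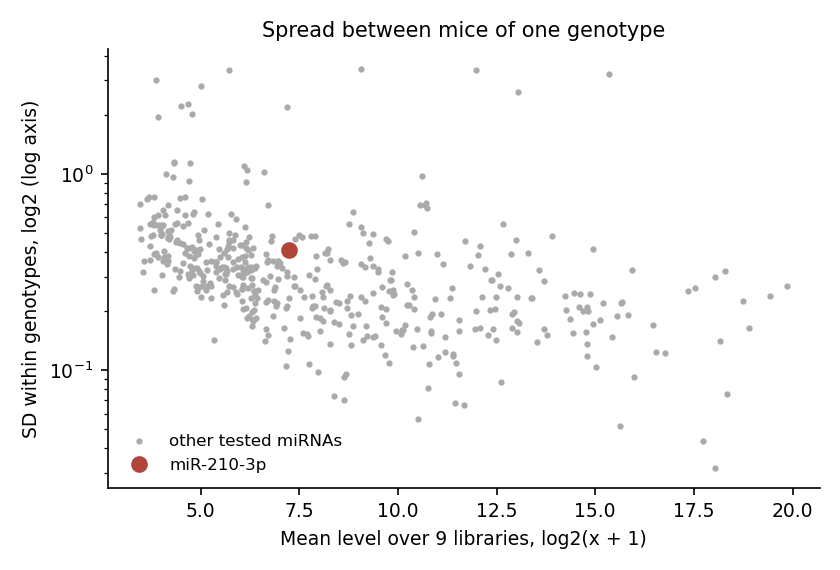
SD within genotypes (pooled over the 3 groups, log axis) against mean level over the 9 libraries for the 489 tested miRNAs; each grey point is a miRNA and the red point is miR-210-3p. At its mean level of 7.25 miR-210-3p, with an SD of 0.41, lies in the upper part of the cloud.

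miR-210-5p, the product of the other arm, was rare, in place 502 by mean level. In WT its level was 3.20, 3.11 and 3.86 in replicates 1, 2 and 3. In Hete_KO it was 3.16, 3.42 and 3.91. In Homo_KO it was 3.54, 2.04 and 3.77. Homo_KO replicate 2 stood below the other 8 mice, which spanned 3.11 to 3.91, and the groups overlapped in every comparison.

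Its mean over the 9 libraries, 3.33, was below the filter's level of 3.46, so miR-210-5p was not among the 489 tested miRNAs and only miR-210-3p was. At this height the levels are coarse steps shared by many miRNAs. In Homo_KO replicate 2, 44 other miRNAs held the same value as miR-210-5p, and the next levels of that library were 1.48 and 2.47. In Hete_KO replicate 2, 20 others held its value, and the next levels were 3.12 and 3.66. A step to the next level in these libraries is similar in size to the differences between group means.

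For miR-210-5p the group means (± SD, n = 3 mice) were 3.39 ± 0.41 for WT, 3.50 ± 0.38 for Hete_KO and 3.12 ± 0.94 for Homo_KO. In a fit over all 860 miRNAs with no filter, the log2 difference from WT was 0.11 ± 0.50 in Hete_KO (limma, SE, adjusted p = 0.957). In Homo_KO it was -0.27 ± 0.50 (adjusted p = 0.816), and between Homo_KO and Hete_KO -0.38 ± 0.50 (adjusted p = 0.916). The intervals of the differences from WT, -0.99 to 1.20 in Hete_KO and -1.37 to 0.82 in Homo_KO, are wide enough to hold a doubling in the first and a halving in the second. Without Homo_KO replicate 2 the difference between Homo_KO and WT was 0.27 and that between Homo_KO and Hete_KO 0.16, and without Homo_KO replicate 3 the latter was -0.70. The difference between Hete_KO and WT was 0.34 without WT replicate 3, -0.03 without WT replicate 2 and -0.10 without Hete_KO replicate 3. With the count of bottom-level miRNAs as a covariate the difference from WT was 0.35 in Homo_KO and 0.72 in Hete_KO.

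The 3p product exceeded the 5p product in all 9 mice. The log2 difference between the products was 3.91, 4.15 and 3.10 in WT replicates 1, 2 and 3. It was 3.58, 4.08 and 3.83 in Hete_KO and 3.37, 5.21 and 4.03 in Homo_KO. As ratios of x + 1 these run from 8.56 in WT replicate 3 to 37.1 in Homo_KO replicate 2. The 5p product was lowest in that library, with a linear level x of 3.12 against 152 for the 3p product. The added 1 makes the ratio there smaller than that of x itself. The mean difference (± SD, n = 3 mice) was 3.72 ± 0.55 for WT, 3.83 ± 0.25 for Hete_KO and 4.20 ± 0.94 for Homo_KO.

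The balance of the arms was not distinguishable between genotypes. The arm difference was 0.49 larger in Homo_KO than in WT (exact permutation test, two-sided p = 0.5) and 0.11 larger in Hete_KO than in WT (exact permutation test, two-sided p = 0.9). Adjusted over these 2 comparisons both values were 0.9, and 3 mice against 3 cannot give less than 0.1 in the exact test. Without Homo_KO replicate 2 the difference between Homo_KO and WT was -0.02. An arm difference of this size was ordinary in these libraries: of 214 hairpins with both products listed and at least 1 of them above the filter's level, 101 had a larger absolute difference of means than the 3.92 of miR-210, and the median was 3.81. The 3p product was the higher one in 98 of the 214.

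The wider hypoxia response was read from a list of 25 miRNAs reported to rise in hypoxia in various cells, all of which were tested. limma called none of them in any comparison; at an unadjusted p under 0.05 there were 8 in Homo_KO against WT, 6 in Hete_KO against WT and 2 in Homo_KO against Hete_KO, where all tested miRNAs gave 117, 77 and 41. In Homo_KO against WT 14 of the 25 had a positive and 11 a negative log2 difference, with a median of 0.10 against 0.07 over all tested miRNAs, and 7 had groups that did not overlap, against 32.7% of all tested miRNAs. In Hete_KO against WT 12 were positive and 13 negative, with a median of -0.05 against -0.02, and 6 did not overlap, against 17.2%. The 3 most abundant were miR-21a-5p, which is induced in inflamed and fibrotic tissue, miR-26a-5p and miR-26b-5p, which are abundant in adipocytes. miR-21a-5p had means of 18.50 in WT, 18.09 in Hete_KO and 18.30 in Homo_KO. Those of miR-26a-5p were 17.96, 18.26 and 18.30, and those of miR-26b-5p were 16.21, 16.64 and 16.52, in the same order. Near the top of the scale, too, the levels are steps that libraries share. miR-26b-5p was at 16.64 in all 3 Hete_KO mice and at 16.52 in all 3 Homo_KO mice. In Homo_KO 7 and in Hete_KO 6 of the 25 had a larger positive difference from WT than miR-210-3p.

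A second list held 16 miRNAs reported to act on HIF-1 alpha or on its regulators, 4 of which are on both lists, and all 16 were tested. In Homo_KO against WT limma called 1, lower, against 3.27% of all tested miRNAs called in either direction. There 4 had an unadjusted p under 0.05, where all tested miRNAs gave 117. The differences were positive in 6 and negative in 10, with a median of -0.11 against 0.07 over all tested miRNAs. In Hete_KO against WT none was called by limma, against 0.409% of all tested miRNAs. Here 3 had an unadjusted p under 0.05, where all tested miRNAs gave 77. The differences were positive in 7 and negative in 9, with a median of -0.09 against -0.02. In 5 of the 16 the Homo_KO mice, and in 3 the Hete_KO mice, did not overlap the WT mice, which is near the shares of 32.7% and 17.2% over all tested miRNAs. The most abundant members were miR-22-3p, with means of 14.22 in WT, 14.40 in Hete_KO and 14.43 in Homo_KO, and miR-199a-5p and miR-199b-5p, both of stromal cells. miR-199a-5p had means of 12.58, 12.44 and 12.42, and miR-199b-5p of 12.31, 12.25 and 12.31, in the same order.

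The called member was miR-18a-5p, from the proliferation-linked Mir17hg cluster, which is reported to lower HIF-1 alpha. Listed members of the same cluster, miR-17-5p and miR-20a-5p, were not called by limma. Their log2 differences from WT were -0.16 and -0.31 in Homo_KO (adjusted p = 0.559 and 0.195). In Hete_KO they were -0.22 and -0.63 (adjusted p = 0.553 and 0.0605). The level of miR-18a-5p was 7.77, 7.72 and 7.50 in WT replicates 1, 2 and 3. In Hete_KO it was 6.88, 6.87 and 6.95, and in Homo_KO 6.91, 7.07 and 6.87. All 6 knockout mice lay below the 3 WT mice. It fell by 0.71 ± 0.14 (log2, SE) in Homo_KO against WT (limma, adjusted p = 0.0314). In Hete_KO the difference was -0.76 ± 0.14 without passing the test (adjusted p = 0.0548). It passed in 5 of 20 alternative analyses: with the replicate block (adjusted p = 0.0417), sample weights (0.0168) or the stricter filter (0.0421), and without WT replicate 3 (0.0328) or Hete_KO replicate 1 (0.0437). The call in Homo_KO ended in 9 of 20 alternative analyses, with adjusted p up to 0.194: with no filter, with either covariate, and without WT replicate 1 or 2, Hete_KO replicate 3 or any 1 of the Homo_KO mice. The log2 difference in Homo_KO stayed between -0.79 and -0.66 in all 20. The mean of 4 leukocyte miRNAs also separated these groups, with 11.65 to 11.90 in WT and 12.19 to 12.51 in Homo_KO (11.43 to 12.06 in Hete_KO); all 4 were above the lowest value in every library, and their summed linear level ran from 14089 to 17547 in WT, 12848 to 17980 in Hete_KO and 19476 to 24859 in Homo_KO. The epithelial mean ran from 5.97 to 6.34 in WT, 6.15 to 9.27 in Hete_KO and 6.41 to 7.16 in Homo_KO. Endothelial miR-126a (mean of both arms) was lower in every knockout mouse than in every WT mouse. It ran from 16.31 to 16.66 in WT, 15.68 to 16.05 in Hete_KO and 16.03 to 16.19 in Homo_KO. The summed linear level of both arms ran from 229229 to 301900, 140553 to 219074 and 204293 to 224020, in the same order. The 3p arm alone did not separate the groups, at 17.58 in WT replicate 1, Hete_KO replicate 1 and Homo_KO replicates 1 and 2. Of all tested miRNAs, 32.7% did not overlap between Homo_KO and WT and 17.2% between Hete_KO and WT. The part of these cell types in the level of miR-18a-5p was not tested.

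**Figure D4:**
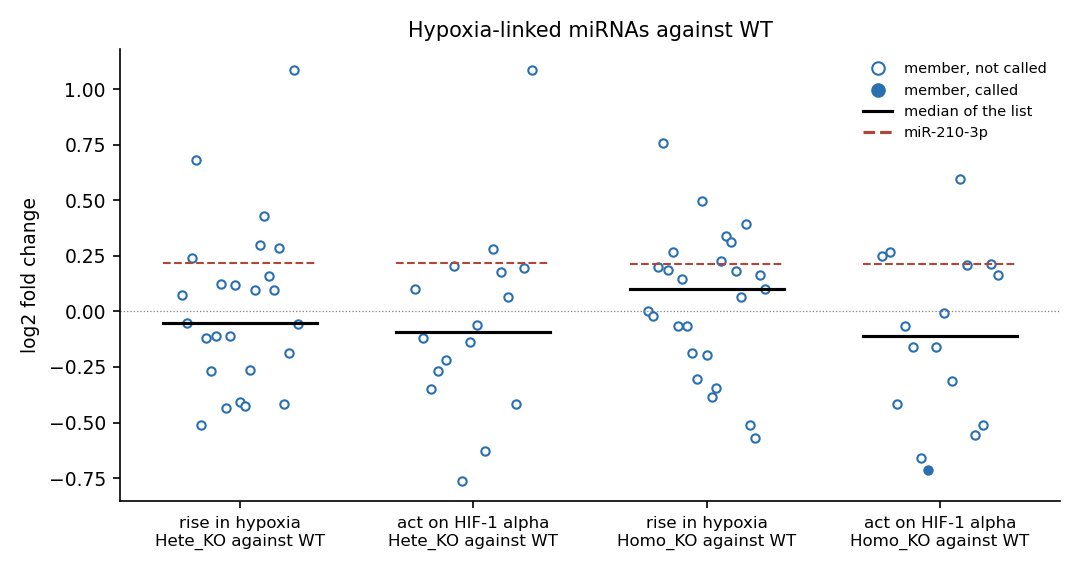
Log2 fold change against WT of each member of the list reported to rise in hypoxia (25 miRNAs) and of the list reported to act on HIF-1 alpha or its regulators (16 miRNAs); black lines are medians of the lists, red dashed lines the value of miR-210-3p, and the filled point is a called member. Members lie on both sides of 0 in every column, and the filled point is miR-18a-5p in Homo_KO at -0.71.

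The miRNAs whose levels followed miR-210-3p most closely over the 9 libraries were found by Pearson's r among the other 488 tested miRNAs. They were miR-384-5p (r = 0.90), miR-32-3p (0.86), miR-676-5p (0.82), miR-33-5p (0.78) and miR-101a-3p (0.76). Each was higher in Hete_KO replicate 3 than in Hete_KO replicate 1, as miR-210-3p was. The choice by r over these same libraries favours such agreement, so it is not a separate finding. miR-384-5p was at 5.91 in Hete_KO replicate 3 and 5.94 in Homo_KO replicate 3, while the other 7 libraries ranged from 4.66 to 5.32. miR-33-5p, which lies in Srebf2 and acts on cholesterol export, is also on the list for HIF-1 alpha. Within genotypes, after the group means were taken off, the r of these 5 lay between 0.76 and 0.92. Only 2 of them were among the 5 closest by that measure, which uses the same libraries as the choice and is not a separate check. By Spearman's rho 2 of the 5 were among the 5 closest, miR-101a-3p (0.89) and miR-33-5p (0.85). The values are a description over 9 libraries that share a normalization, with the highest of 488 coefficients picked, and the median r was 0.08. With miR-210-5p, the other product of the hairpin, r was 0.24.

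**Figure D5:**
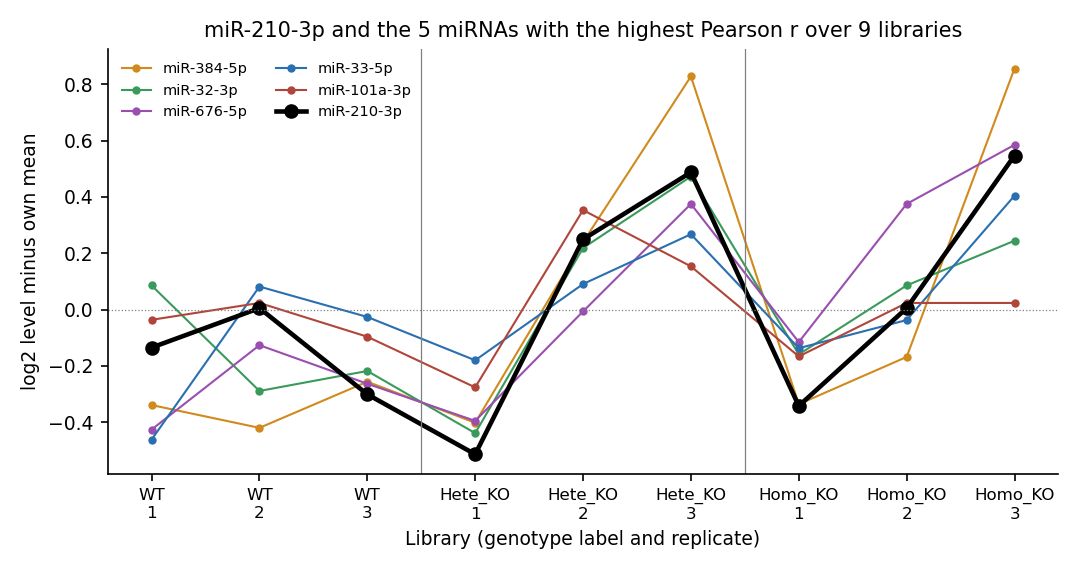
Levels of miR-210-3p (thick black line) and of the 5 miRNAs with the highest Pearson's r to it, each as the log2 level minus its own mean over the 9 libraries, by library; lines only join the points of a miRNA. All 6 are below their mean in Hete_KO replicate 1 and Homo_KO replicate 1 and above their mean in Hete_KO replicate 3 and Homo_KO replicate 3. The choice by r over these same libraries favours this likeness.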

How the data were processed

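Small RNA libraries were prepared from Trizol-extracted RNA with Illumina's TruSeq small RNA kit, per the labels' protocols, and the build was mm10, per the submitters' processing notes. The sources used here do not name an aligner, a counting tool or a normalization. The authors' deposited values, although named FPKM, are log2 levels with the same maximum (19.99) in all 9 libraries, and they were used as quantile-normalized log2(x + 1) values without a further pseudocount. Such values hide differences in depth. Groups came from the sample titles, and each mouse is 1 replicate.

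The filter required values above the bottom level in 3 or more libraries and a mean of at least 3.46, log2(10 + 1), and kept 489 of 860 miRNAs. Genotypes were compared with limma 3.58.1 (R 4.3.3; lmFit, eBayes with trend, all 9 libraries), with Benjamini-Hochberg adjustment over all tested miRNAs and a threshold of 0.05. The fit was tested on simulated data with independent noise, which lack the shared normalization and tissue mixture of these libraries. The arm difference was compared by exact permutation with scipy 1.17.1.

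The members and lists were chosen with earlier results of these data known. Named were both arms, the called members and the 3 highest of each list, the 5 miRNAs most like miR-210-3p, and the neighbours by level.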

Additional observations from a re-analysis of the deposited data

How the results depend on the processing

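miR-210-3p was not called in any comparison under any of the alternatives run: another pseudocount, no filter, a stricter filter, sample weights, no variance trend, scaling by the median, quantile normalization run again, only the groups compared, muscle and lowest-value covariates, the replicate block and each library left out. Its log2 difference from WT in Hete_KO was positive in all 20, from 0.01 to 0.51, the latter without Hete_KO replicate 1, and 0.45 with sample weights. In Homo_KO, leaving out single libraries gave -0.025 to 0.42, and sample weights 0.31. Between Homo_KO and Hete_KO it was 0.0059 with scaling by the median and -0.30 to 0.20 with libraries left out, so that its sign is not resolved. For miR-210-5p in Hete_KO the lowest-value covariate (added after the data were seen) gave 0.72. The arm difference, with libraries left out, differed from WT by -0.020 to 0.90 in Homo_KO and by -0.20 to 0.33 in Hete_KO, where ranks in place of values gave -2.17 places; the causes were not tested.

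With the replicate block the adjusted p of miR-210-3p was 0.582 in Homo_KO and 0.702 in Hete_KO. Same-numbered mice had correlations of deviations from -0.28 to 0.55, and mice of different numbers from -0.70 to 0.54. Of the 9 libraries 7 correlated best with a same-numbered one, and the labels do not tie the numbers to a litter or batch. The block gave 25 calls in place of 16 in Homo_KO and 15 in place of 2 in Hete_KO. Over all alternatives the calls ranged from 0 to 74, 0 to 34 and, across the 3 genotypes, 0 to 52 in place of 6. The median of the 25 miRNAs reported to rise in hypoxia ran from -0.02 to 0.18 in Homo_KO and from -0.11 to 0.17 in Hete_KO. That of the 16 miRNAs reported to act on HIF-1 alpha ran from -0.24 to 0.08 and from -0.18 to 0.05, positive in 1 and 4 of the 20 alternatives. The number of reads is unknown, which limits miR-210-5p most.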
